A study of Mus musculus with 9 samples.

Results

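The ubiquitin ligases tied to T cell anergy, and the adaptors that switch some of them on, were followed in peptide-activated CD8 T cells of 3 clones. The genes were taken by symbol from a list of 8: Cblb, Cbl, Itch, Nedd4, Rnf128 and Peli1, which encode ligases, and Ndfip1 and Ndfip2, which encode adaptors. All 8 were among the 24060 genes of the deposited table, whose values are TPM, read abundances scaled for transcript length and library total. A filter that asked for more than 1 TPM in at least 1 library kept 11330 genes, 7 of the 8 among them. Rnf128 did not pass.

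Anergy is a state in which a T cell that met antigen under poor conditions responds weakly when it meets it again. Ubiquitin ligases hold this state by marking proteins downstream of the T cell receptor (TCR) for degradation or for altered traffic. CBL-B and c-CBL are RING ligases that act close to the receptor, ITCH and NEDD4 are HECT ligases released from autoinhibition by the membrane adaptors NDFIP1 and NDFIP2, RNF128 (also called GRAIL) is a transmembrane RING ligase of endosomes, and PELI1 is a Pellino ligase that limits the NF-κB subunit c-Rel.

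The cells came from 3 transnuclear BALB/c lines with intact Rag2, named R7-I, R7-II and R7-III. Each line was made from the nucleus of 1 CD8 T cell specific for ROP7, an antigen of Toxoplasma gondii, and its T cells carry the TCR which that cell had rearranged. In the design text of the series, affinity for the ROP7 peptide is ordered R7-I, R7-III, R7-II from high to low, and self-reactivity R7-III, R7-I, R7-II. Splenocytes of every clone were kept overnight with 10 μM ROP7 peptide and 10 ng/ml IL-2, then CD3+ CD8+ cells that bound the H-2Ld-Rop7 tetramer were sorted and their polyA RNA was sequenced, with 3 libraries per clone and 9 in all. Since each clone is 1 TCR in 1 mouse line, TCR and line cannot be told apart. The labels call the libraries biological replicates and do not say whether they came from separate mice, so p-values measure the spread between these libraries, part of which may be technical. The age of the mice was not stated in the labels. TPM do not hold the exact depth of each library, so no counting error is given.

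The sorted cell type was checked against its markers. All 8 defining CD8 T cell genes passed the filter, and their summed level was 2114, 2083 and 2036 TPM in the R7-I libraries, 2946, 2888 and 3005 TPM in the R7-II libraries and 2208, 2238 and 2095 TPM in the R7-III libraries. The most abundant was Lck, a kinase of the TCR complex, at 400.4 ± 7.28, 526 ± 10.6 and 386 ± 22.8 TPM in R7-I, R7-II and R7-III (mean ± SD, n = 3 libraries per clone, here and below), ahead of Cd8b1 at 319.8 ± 8.14, 519 ± 31.9 and 326 ± 5.23 TPM and Cd3g at 287 ± 7.32, 503 ± 7.67 and 367 ± 9.84 TPM. Of these 8 genes, 6 were called higher in R7-II than R7-I and 7 higher than R7-III (limma, adjusted p under 0.01), or 5 and 5 after the scaling described below, and 3 were higher in R7-III than R7-I. Of all genes, 40.6%, 35.6% and 6.96% were called higher in these comparisons, or 26.0%, 25.6% and 4.95% after that scaling. Cd4 did not reach the filter in any library, and the 4 CD4 T cell genes summed to 3.36, 4.11 and 3.42 TPM in the R7-I libraries, 4.03, 4.56 and 5.81 TPM in the R7-II libraries and 6.29, 5.62 and 8.01 TPM in the R7-III libraries, led by Cd40lg. Foxp3, the regulatory T cell factor on that list, averaged 0.423, 0.9 and 0.257 TPM and was called higher in R7-II than R7-III, where Cd40lg was called lower. Foxp3 passed the filter only through R7-II, so the clone where it is high decided that it was tested. The call of Foxp3 is therefore not read further.

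Markers of other cells differed between the clones. The 8 B cell genes, led by Cd79b, summed to 10.98, 15.3 and 8.56 TPM in the R7-I libraries, 71.8, 33.9 and 55.3 TPM in the R7-II libraries and 5.23, 7.55 and 7.44 TPM in the R7-III libraries. Each of the 8 was called higher in R7-II in both comparisons, as were the 7 MHC class II genes, led by Cd74, which summed to 34.5, 50.4 and 33.0 TPM in the R7-I libraries, 186, 115 and 184 TPM in the R7-II libraries and 25.0, 29.2 and 25.4 TPM in the R7-III libraries. Of these genes, Blnk, Cd22, Bank1 and Ciita passed the filter only through R7-II, so the clone where they are high decided that they were tested. Their calls are not read further, and the sums do not depend on the filter. The 9 myeloid genes in the table, led by Lyz2, summed to 4.84, 5.44 and 5.45 TPM in the R7-I libraries, 41.1, 23.3 and 78.7 TPM in the R7-II libraries and 6.66, 5.62 and 6.84 TPM in the R7-III libraries, and 5 of the 7 that were tested were called higher in R7-II in each comparison (4 against R7-III after scaling). Of the 7, Csf1r, Cd14, Itgam and S100a8 passed the filter only through R7-II, so this count of calls is not read further. All 3 sums were highest in R7-II, and within R7-II they were lowest in replicate 2. The leading genes Cd79b (18.8 ± 6.02 TPM in R7-II, 3.54 ± 1.09 in R7-I), Cd79a (14.5 ± 5.76 and 2.78 ± 0.777), Ms4a1 (6.09 ± 2.59 and 1.37 ± 0.644), Cd74 (77.9 ± 19.6 and 17.4 ± 5.12), H2-Aa (30.1 ± 8.45 and 7.19 ± 1.78), H2-Ab1 (20.8 ± 5.79 and 5.27 ± 1.28), Lyz2 (32.9 ± 21.9 and 0.450 ± 0.200), Cd68 (6.16 ± 1.15 and 3.80 ± 0.289) and Tyrobp (3.16 ± 1.84 and 0.623 ± 0.366) showed this gap. No B cell or MHC class II marker was listed at 0 in all libraries, whereas the NK receptor genes Klra8 and Klra4 were. The 6 NK cell genes summed to 33.4, 38.2 and 24.0 TPM in the R7-I libraries, 9.77, 12.1 and 17.2 TPM in the R7-II libraries and 32.3, 26.8 and 14.9 TPM in the R7-III libraries, led by Klrc1 and, next, Eomes, both of which CD8 T cells also express, and Klrc1 was called lower in R7-II than R7-I. The 7 erythroid genes summed to 55.8, 129 and 44.0 TPM in the R7-I libraries, 1.95, 4.26 and 21.3 TPM in the R7-II libraries and 39.4, 34.8 and 13.3 TPM in the R7-III libraries, led by Hbb-b1, with Hba-a2 and Hba-a1 next. Hbb-b1 was called lower in R7-II than R7-I, and reads of these globin genes may be split between near-identical copies. The part of these markers in the results was not tested, and in bulk RNA fewer cells of a type and less RNA per cell cannot be told apart.

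R7-II differed from the other clones in a large share of the transcriptome, and the ligases have to be read against that. With limma on log2(TPM + 1) and a threshold of 0.01 on the adjusted p, 56.1% of the 11330 genes were called between R7-II and R7-I, 40.6% higher and 15.5% lower in R7-II. Of the 7 tested ligase and adaptor genes, 5 were higher in R7-II (Cbl, Itch, Ndfip1, Ndfip2 and Peli1), 1 was lower (Nedd4) and 1 was not called (Cblb). Between R7-II and R7-III 53.6% of genes were called, 35.6% higher and 18.0% lower, and of the 7, 4 were higher (Cbl, Itch, Ndfip1 and Peli1), 1 was lower (Nedd4) and 2 were not called (Cblb and Ndfip2). These comparisons share the R7-II libraries and are not independent. Between R7-III and R7-I 8.41% of genes were called, 6.96% higher and 1.45% lower in R7-III, and limma called 0 of the 7. At an unadjusted p under 0.05, 2 of the 7 were higher (Nedd4 and Ndfip2) and 2 lower (Cblb and Cbl) in R7-III, beside 23.8% and 8.51% of all genes. After median-of-ratios scaling the adjusted threshold again left 0 of the 7 called, beside 4.95% of all genes higher and 3.44% lower. Without 1 library the 953 genes called there became 436 (R7-I replicate 1), 577 (R7-I replicate 2), 636 (R7-I replicate 3), 496 (R7-III replicate 1), 497 (R7-III replicate 2) or 530 (R7-III replicate 3). Without R7-II replicate 1, 2 or 3 they became 1076, 1120 or 923. Where 56.1% and 53.6% of all genes were called, a call alone does not set a gene apart. The median absolute log2 fold change of the 7 was 0.27 against 0.28 for all genes between R7-II and R7-I, 0.31 against 0.27 between R7-II and R7-III, and 0.18 against 0.10 between R7-III and R7-I.

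As deposited, the changes of all genes leaned toward R7-II. The median log2 fold change of all genes was 0.17 when R7-II was set against R7-I, 0.12 against R7-III, and 0.04 for the remaining pair (R7-III over R7-I), and dividing each library by a median-of-ratios factor brings these near 0 by construction (0.01, 0.00 and 0.00). An effect of the scale and a broad rise in R7-II cannot be told apart here. Of the genes called, 72.4%, 66.4% and 82.8% were higher in the first-named clone on the TPM scale, and 47.7%, 47.9% and 59.0% after that scaling. Among the 7 tested genes it left 2 higher (Cbl and Peli1) and 2 lower (Nedd4 and Cblb) in R7-II than R7-I, beside 26.0% and 28.5% of all genes. Against R7-III it left 3 higher (Cbl, Itch and Peli1) and 2 lower (Nedd4 and Ndfip2), beside 25.6% and 27.8% of all genes. The median absolute log2 fold change of the 7 became 0.25 against 0.26 for all genes, 0.19 against 0.26, and 0.19 against 0.10 in the 3 comparisons. Changes are therefore also given relative to the median of all genes.

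**Figure D1:**
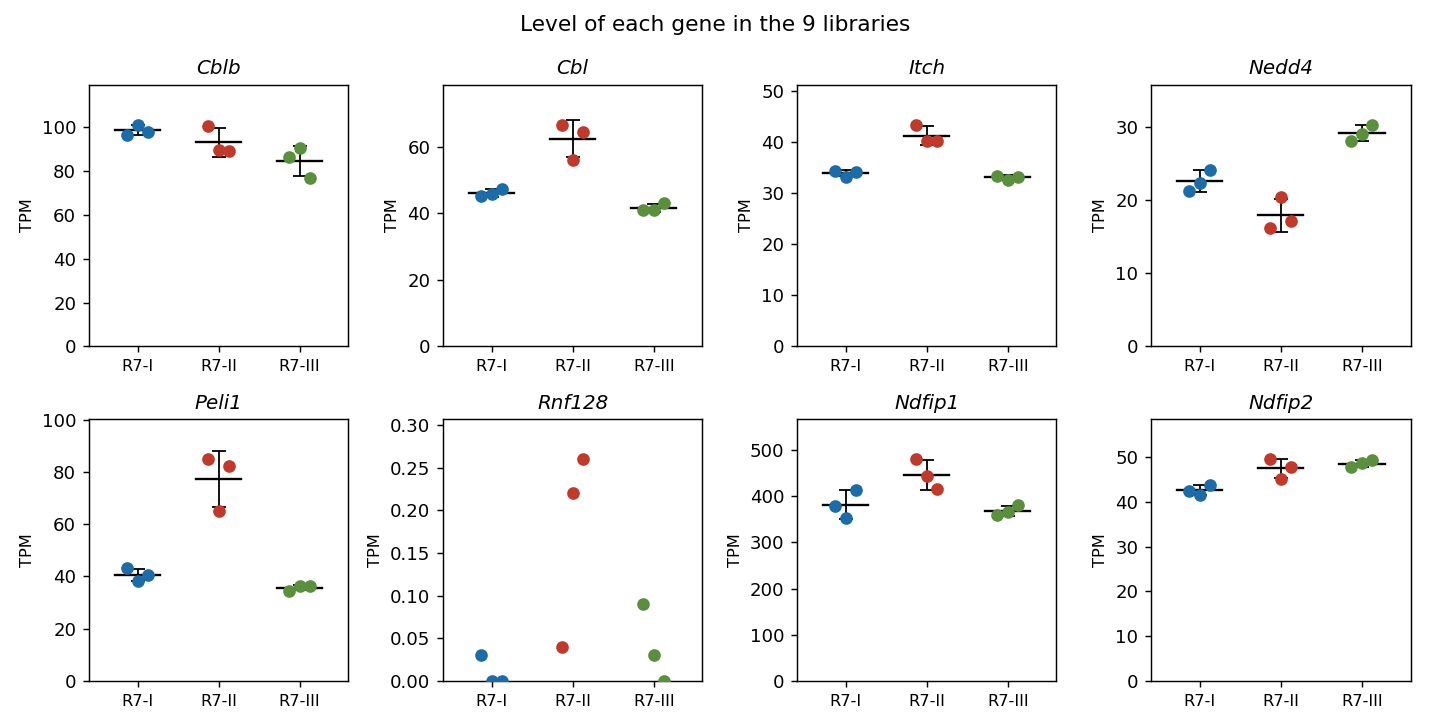
TPM of the 8 genes in each of the 9 libraries (points), by clone, on axes that start at 0, with the clone mean (bar) and SD (whiskers, n = 3 libraries) for each gene but Rnf128. The 3 R7-II libraries lie above the 6 others for Peli1, Cbl, Itch and Ndfip1 and below them for Nedd4, and Rnf128 stays under 0.3 TPM throughout. After median-of-ratios scaling Ndfip1 no longer separates R7-II. The share of all genes that separate R7-II in this way is not given here, so a lack of overlap does not set a gene apart.

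Peli1 had the largest differences of the 7 tested genes in the 2 comparisons with R7-II. PELI1 is induced by TCR signals and marks c-Rel for degradation, and mouse T cells without it respond more strongly. Its transcript stood at 43.0, 38.3 and 40.4 TPM in the R7-I libraries, 84.8, 65.1 and 82.2 TPM in the R7-II libraries and 34.4, 36.1 and 36.4 TPM in the R7-III libraries. Every R7-II library was above every library of the other clones, and R7-II replicate 2 was the lowest of its group. The clone means were 40.6 ± 2.36, 77.3 ± 10.7 and 35.6 ± 1.07 TPM for R7-I, R7-II and R7-III, a ratio of 1.91 to R7-I and 2.17 to R7-III. On the log2(TPM + 1) scale Peli1 rose by 0.91 (SE 0.09, adjusted p = 6.64e-06, limma) over R7-I and by 1.09 (SE 0.09, adjusted p = 1.91e-06) over R7-III. Relative to the median of all genes this was 0.74 and 0.97, and 90.5% and 93.4% of tested genes had a smaller absolute change. R7-III against R7-I gave -0.18 (adjusted p = 0.176), not past the threshold. Both calls held in 19 of 19 alternative settings.

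Cbl followed the same order at a smaller size. c-CBL ubiquitinates the TCR zeta chain and the kinases that bind it, which shortens signalling. Its level was 45.2, 45.9 and 47.4 TPM in the R7-I libraries, 66.6, 56.1 and 64.5 TPM in the R7-II libraries and 41.0, 40.9 and 43.0 TPM in the R7-III libraries. The R7-II libraries lay above all others, R7-I lay between, and R7-III was lowest, with no overlap between any of the clones. Cbl rose in R7-II by 0.42 over R7-I (SE 0.06, adjusted p = 9.70e-05) and by 0.57 over R7-III (SE 0.06, adjusted p = 1.27e-05), or 0.26 and 0.45 relative to the median of all genes. The step from R7-I down to R7-III was -0.15 (adjusted p = 0.114) and did not pass. Both calls held in 19 of 19 alternative settings.

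Cblb, the CBL homologue most closely tied to anergy, did not share that pattern although it was the more abundant of the pair. CBL-B raises the threshold for activation without costimulation. Cblb was at 96.7, 101 and 98.0 TPM in the R7-I libraries, 101, 89.5 and 89.1 TPM in the R7-II libraries and 86.6, 90.5 and 76.9 TPM in the R7-III libraries. The R7-II values overlapped those of both other clones, while every R7-I library was above every R7-III library. Cblb differed by -0.08 between R7-II and R7-I (95% confidence interval -0.22 to 0.05, adjusted p = 0.250) and by 0.14 between R7-II and R7-III (interval -0.00252 to 0.28, adjusted p = 0.0762), neither past the threshold. The second was 0.02 relative to the median of all genes and 0.01 with median-of-ratios scaling (adjusted p = 0.886, from 0.0315 to 0.886 over its alternatives). Relative to the median of all genes the first was -0.25, and with median-of-ratios scaling it was -0.26 (adjusted p = 0.00415) and was called lower in R7-II, with adjusted p from 0.00415 to 0.512 over its alternatives. R7-III against R7-I gave -0.22 (adjusted p = 0.0332), short of the threshold.

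A ratio of 2 genes within a library does not change when a library is divided by 1 factor. The ratio of Cblb to Cbl was 2.14, 2.21 and 2.07 in the R7-I libraries, 1.51, 1.597 and 1.38 in the R7-II libraries and 2.11, 2.21 and 1.79 in the R7-III libraries. The 3 R7-II ratios were the lowest of the 9, and R7-I and R7-III overlapped. The mean log2 ratio was 0.48 lower in R7-II than in the 6 other libraries (exact two-sided permutation p = 0.0238, the smallest that 3 against 6 libraries can give, 0.0357 after adjustment over 3 ratios). No share of other gene pairs at that p is given here. Since limma called 56.1% and 53.6% of all genes in the comparisons with R7-II, reaching it does not set this ratio apart.

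Itch and Nedd4, both HECT ligases with WW domains, moved in opposite directions. ITCH targets PLC-γ, PKC-θ and JunB, and mice without it develop inflammatory disease, whereas NEDD4 has been described to promote T cell activation by degrading CBL-B. Itch stood at 34.3, 33.2 and 34.2 TPM in the R7-I libraries, 43.4, 40.1 and 40.1 TPM in the R7-II libraries and 33.3, 32.6 and 33.2 TPM in the R7-III libraries. All R7-II values were above all others and the other clones overlapped. Itch rose in R7-II by 0.27 over R7-I (SE 0.04, adjusted p = 0.000207) and by 0.31 over R7-III (SE 0.04, adjusted p = 9.34e-05), or 0.11 and 0.19 relative to the median of all genes. After median-of-ratios scaling the rise over R7-I was 0.10 and was no longer called (adjusted p = 0.0235, with a range of 0.000186 to 0.0779 over all alternatives).

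Nedd4 was at 21.3, 22.4 and 24.2 TPM in the R7-I libraries, 16.2, 20.5 and 17.2 TPM in the R7-II libraries and 28.2, 29.1 and 30.4 TPM in the R7-III libraries. The R7-II libraries were lowest, the R7-I libraries intermediate and the R7-III libraries highest, with no overlap. Nedd4 was lower in R7-II than R7-III by a log2 fold change of -0.68 (SE 0.08, adjusted p = 3.37e-05), a TPM ratio of 0.615, and lower than R7-I by -0.32 (SE 0.08, adjusted p = 0.00460). Relative to the median of all genes these were -0.80 and -0.49. The call against R7-I was lost without R7-I replicate 2 (-0.32 became -0.33, adjusted p = 0.0134), R7-I replicate 3 (-0.28, 0.0214), R7-II replicate 1 (-0.26, 0.0177) or R7-II replicate 3 (-0.29, 0.0173). It was also lost with no filter on low values (0.0110) and with only the clones compared (0.0153), 6 of 19 alternatives in all, and adjusted p ranged from 0.000256 to 0.0214 over its alternatives. Between R7-III and R7-I the difference was 0.35 (adjusted p = 0.0125, from 0.00231 to 0.0620 over its alternatives), and it was called without R7-II replicate 1 (adjusted p = 0.00767) or R7-II replicate 2 (adjusted p = 0.00231). Those libraries enter this comparison only through the shared estimate of spread, the filter and the adjustment over tested genes. Within libraries, Itch to Nedd4 was 1.61, 1.48 and 1.41 in the R7-I libraries, 2.67, 1.95 and 2.34 in the R7-II libraries and 1.182, 1.12 and 1.09 in the R7-III libraries. The ratio separated the 3 clones without overlap, R7-II highest, and the mean log2 ratio was 0.82 higher in R7-II than in the 6 other libraries (exact two-sided permutation p = 0.0238, 0.0357 after adjustment over 3 ratios). As for Cblb to Cbl, no share of other gene pairs at that p is given here, so reaching it does not set this ratio apart.

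Rnf128, which encodes the anergy ligase GRAIL, was close to the bottom of the scale. It was listed at 0.0300, 0 and 0 TPM in the R7-I libraries, 0.0400, 0.220 and 0.260 TPM in the R7-II libraries and 0.0900, 0.0300 and 0 TPM in the R7-III libraries. The highest value was in R7-II replicate 3, and R7-II replicate 1 was below R7-III replicate 1. A fit with no filter on low values put R7-II 0.21 from R7-I (adjusted p = 0.0286) and 0.17 from R7-III (adjusted p = 0.0671), and R7-III 0.04 from R7-I (adjusted p = 0.796), none of them past the threshold.

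Of the adaptors, Ndfip1 was the most abundant of the 8 genes, with more TPM than 97.0% of tested genes. NDFIP1 recruits ITCH to its targets, and mouse T cells that lack it are hyperactive. Ndfip1 was at 379.6, 352 and 414 TPM in the R7-I libraries, 480.3, 445 and 415 TPM in the R7-II libraries and 359, 366 and 381 TPM in the R7-III libraries. The R7-II libraries were above the rest, but R7-II replicate 3 and R7-I replicate 3 differed by about 1 TPM. Ndfip1 was higher in R7-II than R7-I by 0.23 (SE 0.06, adjusted p = 0.00754) and than R7-III by 0.28 (SE 0.06, adjusted p = 0.00256), which is 0.06 and 0.15 relative to the median of all genes. The scalings differed for Ndfip1. Quantile normalization kept both calls (0.30 and 0.37), and median-of-ratios scaling ended both (0.05, adjusted p = 0.450, and 0.15, adjusted p = 0.0415), with ranges of adjusted p over the alternatives of 0.00143 to 0.450 and 0.000395 to 0.0415. The first call held in 2 of the 9 fits that left out a library, those without R7-I replicate 3 or R7-II replicate 3, with log2 fold changes of 0.17 to 0.29 and adjusted p up to 0.0327 over the 9. The second was lost without R7-II replicate 1 (0.22, adjusted p = 0.0105) or R7-III replicate 1 (0.26, adjusted p = 0.0118). R7-III against R7-I gave a log2 fold change of -0.05 (adjusted p = 0.643), and without R7-I replicate 3 the log2 fold change was 0.0109.

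Ndfip2 had another order, with R7-I lowest. It was at 42.4, 41.6 and 43.8 TPM in the R7-I libraries, 49.5, 45.2 and 47.8 TPM in the R7-II libraries and 47.7, 48.8 and 49.3 TPM in the R7-III libraries. Both R7-II and R7-III lay above R7-I, and they overlapped each other. Ndfip2 was higher in R7-II than R7-I by 0.15 (SE 0.04, adjusted p = 0.00802), a direction that turned under median-of-ratios scaling (-0.02, adjusted p = 0.618) or quantile normalization (-0.04, adjusted p = 0.242), and a call that held in 1 of the 9 fits that left out a library, the one without R7-II replicate 2 (adjusted p = 0.00228, against up to 0.0332 in the others, and up to 0.618 over all alternatives). The log2 fold change against R7-III was -0.03 (adjusted p = 0.514), and without R7-II replicate 2 the log2 fold change was 0.00163. Ndfip2 was called lower than R7-III after median-of-ratios scaling (-0.16, adjusted p = 0.00155, from 0.000683 to 0.975 over its alternatives). R7-III against R7-I gave 0.19 (adjusted p = 0.0127, from 0.00622 to 0.0496 over its alternatives), just short of the threshold, and was called without R7-II replicate 1 (adjusted p = 0.00804) or R7-II replicate 2 (adjusted p = 0.00622). The ratio of Ndfip2 to Ndfip1 was 0.112, 0.118 and 0.106 in the R7-I libraries, 0.103, 0.102 and 0.115 in the R7-II libraries and 0.133, 0.133 and 0.129 in the R7-III libraries. The R7-III ratios lay above all others and R7-II overlapped R7-I. Setting R7-II against the rest did not pass (exact two-sided permutation p = 0.0952).

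**Figure D2:**
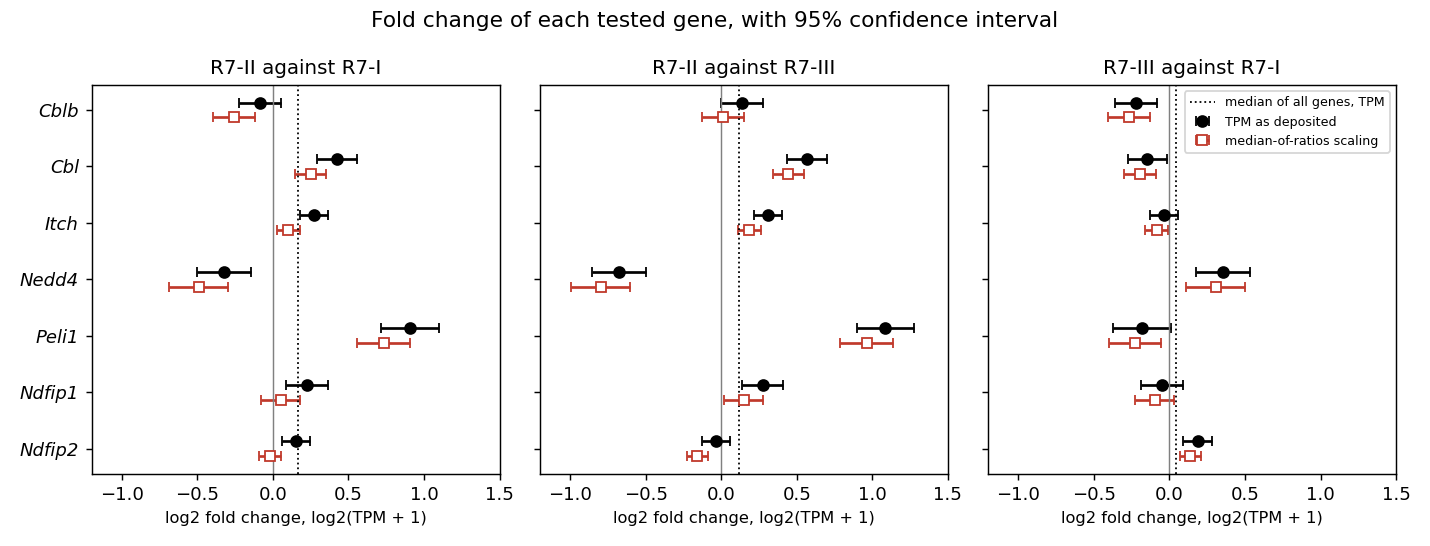
Log2 fold change on the log2(TPM + 1) scale of the 7 tested genes in each comparison of clones, as deposited (black circles) and after median-of-ratios scaling (red squares), with 95% confidence intervals from limma. The dotted line is the median of all genes, and Peli1, Cbl and Nedd4 lie away from it in both comparisons with R7-II, whereas Ndfip2 changes sign against R7-I with the scaling.

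The genes lie on different chromosomes (RefSeq, GRCm38.p6), except that Cbl (chr9:44142976-44234259) and Nedd4 (chr9:72662331-72749851) share one. Cblb is at chr16:52031230-52208047, Itch at chr2:155133481-155226855, Rnf128 at chrX:139563340-139673145, Ndfip1 at chr18:38418907-38465197, Ndfip2 at chr14:105258591-105309298 and Peli1 at chr11:21091283-21150327. RefSeq places small RNA genes or pseudogenes inside Cblb, Itch, Ndfip2 and Peli1, none of them in the TPM table. The library kit does not mark strand, so reads from them could not be set apart.

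On the deposited scale, exact two-sided permutation tests of R7-II against the 6 other libraries, which borrow no spread from other genes, gave p = 0.0238, the smallest possible, for Cbl, Itch, Nedd4, Ndfip1 and Peli1. The exact p was 0.0476 for Rnf128, 0.357 for Ndfip2 and 0.810 for Cblb. No share of all genes at that smallest p is given here. Since limma called 56.1% and 53.6% of all genes in the comparisons of R7-II with R7-I and R7-III, reaching it does not set a gene apart. After median-of-ratios scaling, an alternative chosen after the data were seen, the exact p stayed at 0.0238 for Cbl, Itch, Nedd4 and Peli1 and became 0.167 for Ndfip1, whose R7-II replicate 3 (387 scaled TPM) then lay below R7-I replicates 1 (402) and 3 (432). With 3 libraries against 3 such a test cannot go below 0.1.

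In levels across the 7 tested genes, on the TPM scale, Ndfip1 was highest in every clone and Cblb was next, except that in R7-II the Peli1 mean (77.3 TPM) came close to that of Cblb (93.1 TPM). Clone means of Cbl, Itch, Ndfip2, Peli1 and Nedd4 lay between 18.0 and 77.3 TPM, and Nedd4 was the lowest of the 7 in each clone. R7-II replicate 2 was the R7-II library nearest to the other clones for Peli1, Cbl and Nedd4, and it also had the lowest B cell, MHC class II and myeloid sums of its group. Their part in this was not tested. Without that library Peli1 differed from R7-I by 1.02 and Cbl by 0.50, and Nedd4 by -0.42.

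The stretches just before the start of Peli1, which rose most in R7-II, and of Nedd4, which fell, are shown because these genes moved in opposite directions. RefSeq promoter entries were found for 6 of the 8 genes. The bases printed are those of the GRCm38.p6 entry, + strand, that lie before the outermost RefSeq start: chr11:21091074-21091282 for Peli1 (209 bases) and chr9:72662081-72662330 for Nedd4 (250 bases). Capitals mark CACCC or its reverse complement GGGTG, a core bound by Krüppel-like factors.
Peli1: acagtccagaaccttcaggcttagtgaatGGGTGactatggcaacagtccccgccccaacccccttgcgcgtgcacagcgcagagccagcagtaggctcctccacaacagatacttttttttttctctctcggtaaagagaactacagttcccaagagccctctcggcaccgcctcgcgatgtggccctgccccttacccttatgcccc
Nedd4: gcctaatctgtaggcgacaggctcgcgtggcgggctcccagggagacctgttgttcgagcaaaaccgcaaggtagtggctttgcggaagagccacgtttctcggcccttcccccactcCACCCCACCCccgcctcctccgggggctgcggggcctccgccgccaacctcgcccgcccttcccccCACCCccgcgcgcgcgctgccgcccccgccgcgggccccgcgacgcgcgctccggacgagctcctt
Peli1 had 1 match and Nedd4 3, the latter all on the printed strand. Of 32851 RefSeq promoters, 46.1% had the letters in the same 209 bases and 52.0% in 250 bases, and 6.92% had at least 3 matches in 250 bases. Neither stretch held GGAAA, the core of NFAT sites, on either strand, nor TGACTCA (AP-1) or CACGTG (E-box), letters found in 49.8%, 3.80% and 4.62% of promoters over 209 bases and in 55.6%, 4.46% and 6.02% over 250 bases. GC content was 56.9% for Peli1 and 74.0% for Nedd4, against medians of 51.7% and 52.4%. A match in letters is a description of the stretch and not a binding site.

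Among proteins that bind or counter the CBL ligases, 9 of 10 listed genes were tested. Between R7-II and R7-I 6 were higher and 1 lower (5 and 2 after median-of-ratios scaling), beside 40.6% and 15.5% of all genes (26.0% and 28.5%). Between R7-II and R7-III 5 were higher and 1 lower (4 and 1), beside 35.6% and 18.0% (25.6% and 27.8%). Median log2 fold changes were 0.31 and 0.15 against 0.17 and 0.12 for all genes. After scaling they were 0.14 and 0.02 against 0.01 and 0.00. Sla2 and Sla encode the adaptors SLAP2 and SLAP, which bring c-CBL to the TCR complex. Sla2 was at 6.27, 7.11 and 6.98 TPM in the R7-I libraries, 29.5, 23.8 and 24.6 TPM in the R7-II libraries and 9.79, 10.0 and 9.35 TPM in the R7-III libraries. All R7-II values were at least 2 times those of the other clones, and Sla2 rose by 1.79 over R7-I (adjusted p = 7.07e-08) and 1.33 over R7-III (adjusted p = 3.98e-07). Sla was at 69.1 ± 0.814, 119 ± 14.3 and 55.8 ± 1.82 TPM in R7-I, R7-II and R7-III and rose by 0.77 (adjusted p = 5.50e-06) and 1.07 (adjusted p = 5.62e-07).

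Ubash3b, which encodes the phosphatase STS-1, a CBL-binding inhibitor of TCR signalling, moved the other way. It was at 9.50, 11.6 and 9.59 TPM in the R7-I libraries, 4.34, 5.59 and 3.09 TPM in the R7-II libraries and 22.4, 23.8 and 23.9 TPM in the R7-III libraries. The clones did not overlap, with R7-II lowest and R7-III highest, the order seen for Nedd4. Ubash3b fell in R7-II by a log2 fold change of -1.10 against R7-I (adjusted p = 6.86e-05) and -2.22 against R7-III (adjusted p = 5.07e-07), and was higher in R7-III than R7-I by 1.12 (adjusted p = 0.000643). The adaptors Grb2 (0.39 and 0.38, adjusted p = 3.43e-05 and 3.77e-05) and Sh3kbp1 (0.36 and 0.14, adjusted p = 1.46e-05 and 0.00727) rose by less, and Sh3kbp1 against R7-III was 0.02 after median-of-ratios scaling and no longer called.

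Relatives of the HECT and RING ligases were read against the 40.6% and 35.6% of all genes called higher in R7-II than R7-I and R7-III. After median-of-ratios scaling these shares were 26.0% and 25.6%. The shares of all genes called lower were 15.5% and 18.0%, or 28.5% and 27.8% after scaling. Of the 7 other NEDD4 family genes 5 were tested, and 4 were higher in R7-II than R7-I (2 after median-of-ratios scaling) and 3 higher than R7-III (3 after scaling), with 0 lower in either and medians of 0.32 and 0.38 against 0.17 and 0.12 for all genes. Smurf1 was at 10.1, 10.3 and 9.97 TPM in the R7-I libraries, 22.2, 17.6 and 20.6 TPM in the R7-II libraries and 9.49, 9.56 and 10.0 TPM in the R7-III libraries. The R7-II libraries were set apart from the 6 others, and Smurf1 rose by 0.92 and 0.98 (adjusted p = 2.86e-06 and 1.85e-06). Nedd4l, the closest relative of Nedd4, was low, at 0.667 ± 0.150, 2.17 ± 0.702 and 0.770 ± 0.0265 TPM, and rose by 0.91 and 0.82 (adjusted p = 0.000385 and 0.000831). Only its R7-II libraries passed the filter, so the clone where Nedd4l is high decided that it was tested. Its calls are not read further, and the counts and medians of this family include it. Smurf2 rose by 0.32 and 0.38 (adjusted p = 0.000435 and 0.000146), and Wwp2, the most abundant, by 0.32 over R7-I (adjusted p = 0.00102), with 0.20 against R7-III not called (adjusted p = 0.0150). After median-of-ratios scaling neither Smurf2 nor Wwp2 was called against R7-I.

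Of the 10 other membrane RING ligases related to GRAIL 6 were tested, 4 higher than R7-I (2 after scaling) and 3 higher than R7-III (3 after scaling), with 0 lower and medians of 0.35 and 0.42. Rnf167, an endosomal and lysosomal ligase of this family, was at 36.9, 35.9 and 37.1 TPM in the R7-I libraries, 106, 83.1 and 101 TPM in the R7-II libraries and 36.2, 35.6 and 37.8 TPM in the R7-III libraries. Each R7-II library was more than 2 times any other, and Rnf167 rose by 1.37 and 1.37 (adjusted p = 1.52e-07 and 1.70e-07). Rnf13 rose by 0.62 and 0.59 (adjusted p = 4.85e-05 and 7.99e-05). Rnf130 rose by 0.40 over R7-I (adjusted p = 0.000465; not called after scaling) and was not called against R7-III (0.17, adjusted p = 0.0536), and Rnf149 was not called in either (0.31 and 0.29). Neither of the 2 other Pellino genes, Peli2 and Peli3, passed the filter, so the rise of Peli1 has no tested relative beside it.

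The transcripts of proteins described as substrates or targets of these ligases were measured as well, although ubiquitination acts on the proteins. All 22 listed genes were tested. Between R7-II and R7-I 12 were higher and 3 lower (9 and 4 after median-of-ratios scaling), beside 40.6% and 15.5% of all genes (26.0% and 28.5%). Between R7-II and R7-III 11 were higher and 4 lower (10 and 4), beside 35.6% and 18.0% (25.6% and 27.8%). The medians were 0.25 and 0.20 against 0.17 and 0.12 for all genes. Cd83, a surface protein of activated lymphocytes, was at 46.0, 57.0 and 47.0 TPM in the R7-I libraries, 17.5, 22.1 and 20.3 TPM in the R7-II libraries and 52.0, 47.6 and 43.9 TPM in the R7-III libraries. Its R7-II libraries were all below the rest, and Cd83 fell by a log2 fold change of -1.28 against R7-I (adjusted p = 1.67e-06) and -1.22 against R7-III (adjusted p = 2.27e-06). Junb, the AP-1 subunit that ITCH targets, and Rel, the c-Rel gene that PELI1 targets at the protein level, were the other genes lower in R7-II in both comparisons. Junb was at 207 ± 7.66, 146 ± 3.30 and 194 ± 9.44 TPM in R7-I, R7-II and R7-III (-0.50 and -0.41, adjusted p = 2.33e-06 and 1.05e-05), and Rel at 121 ± 2.66, 103 ± 5.34 and 123 ± 2.51 TPM (-0.23 and -0.25, adjusted p = 0.000425 and 0.000256). The genes of the other ITCH targets named above, PLC-γ and PKC-θ, went the other way. Plcg1 rose in R7-II by 0.87 and 0.68 (adjusted p = 8.28e-07 and 4.57e-06), and Prkcq by 0.82 and 0.63 (adjusted p = 1.01e-07 and 5.03e-07). Both genes were still called higher after median-of-ratios scaling. Junb, Rel, Plcg1 and Prkcq were named after their values were seen.

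Substrates on the other side were led by Coro1a, an actin regulator, at 434, 439 and 443 TPM in the R7-I libraries, 917, 856 and 876 TPM in the R7-II libraries and 505, 519 and 477 TPM in the R7-III libraries. R7-II was set apart there, with rises of 1.01 and 0.82 (adjusted p = 2.05e-08 and 6.59e-08). Zap70, the kinase that c-CBL binds, rose by 0.20 over R7-I (adjusted p = 0.000592), which became 0.02 after median-of-ratios scaling and was not called, and differed from R7-III by 0.09 (adjusted p = 0.0503). Cd40lg, also on the CD4 T cell list, was low and fell against R7-III, by -1.03 (adjusted p = 0.000761), with -0.23 against R7-I (adjusted p = 0.297).

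The counts for the shared ubiquitin machinery depended on the scaling. Of 11 tested genes for ubiquitin, E1 and E2 enzymes and deubiquitinases, 6 were higher and 1 lower in R7-II than R7-I, and 7 higher and 2 lower than R7-III. Median-of-ratios scaling turned these counts to 2 higher and 4 lower in both. Over all genes 40.6% were higher and 15.5% lower than R7-I, and 35.6% and 18.0% than R7-III. These shares moved the same way with the scaling, to 26.0% and 28.5%, and to 25.6% and 27.8%. Ubb, at 2536 ± 37.8 TPM in R7-II, rose by 0.18 and 0.12 as deposited and by 0.00 and -0.01 after scaling, where it was not called, and since this gene is built of repeats its reads may be assigned uncertainly. The E2 gene Ube2d1 rose by 0.44 and 0.48 (adjusted p = 8.80e-05 and 5.03e-05). Uba1, the E1, was not called as deposited (0.05 and 0.00) and was called lower after scaling (-0.12 and -0.12).

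Other genes tied to anergy held the 2 largest called changes of the pathway lists between R7-II and R7-I, those of Ctla4 and Dgka. Of 14 tested, 10 were higher and 2 lower in R7-II than R7-I (7 and 3 after median-of-ratios scaling), beside 40.6% and 15.5% of all genes (26.0% and 28.5%). Against R7-III 8 were higher and 3 lower (7 and 3), beside 35.6% and 18.0% (25.6% and 27.8%). The medians were 0.44 and 0.28 against 0.17 and 0.12 for all genes. The DAG kinase gene Dgka, whose product removes diacylglycerol downstream of the TCR, was at 69.7, 64.9 and 76.5 TPM in the R7-I libraries, 318, 268 and 301 TPM in the R7-II libraries and 89.6, 91.9 and 89.3 TPM in the R7-III libraries. It rose in R7-II by 2.06 and 1.70 (adjusted p = 1.51e-08 and 5.59e-08), without overlap. The inhibitory receptor gene Ctla4 rose by 2.31 and 2.15 (adjusted p = 3.94e-08 and 7.11e-08), and Ndrg1, reported as a T cell anergy factor, by 1.95 and 1.79 (adjusted p = 7.46e-07 and 1.29e-06). Ikzf1 rose by 0.42 and 0.27 (adjusted p = 2.44e-05 and 0.000488) and Nr4a1, a TCR-induced nuclear receptor gene, by 0.36 and 0.48 (adjusted p = 0.00154 and 0.000238), and Nr4a1 against R7-I was not called after scaling. Lag3, an inhibitory receptor gene, went the other way, at 231 ± 21.9 TPM for R7-II against 325 ± 24.8 TPM for R7-III, a log2 fold change of -0.49 (adjusted p = 0.000391). Against R7-I Lag3 gave -0.15 and was not called (adjusted p = 0.123), but it was called lower after scaling (-0.33, adjusted p = 0.00873).

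Ubiquitin ligases and editors of other T cell pathways made up a list of 12. All were tested, and in R7-II 4 were higher and 0 lower than R7-I, with a median log2 fold change of 0.00 against 0.17 for all genes, and 4 were higher and 2 lower than R7-III, with a median of 0.10 against 0.12. After median-of-ratios scaling 1 was higher and 7 lower than R7-I, and 2 were higher and 4 lower than R7-III. Of all genes, 40.6% were higher and 15.5% lower than R7-I as deposited, and 35.6% and 18.0% than R7-III. After scaling the shares of all genes were 26.0% and 28.5%, and 25.6% and 27.8%. Mdm2, which encodes a ligase of p53, rose by 0.54 and 0.60 (adjusted p = 1.54e-05 and 8.29e-06) and Rc3h2, the Roquin-2 gene, by 0.36 and 0.48 (adjusted p = 0.00231 and 0.000345), and Rc3h2 against R7-I was not called after scaling. The most abundant, Trim28, was lower than R7-III, with a log2 change of -0.18 (adjusted p = 0.000123), as was Trim27 (-0.19, adjusted p = 0.000617), while Stub1 (-0.04 and -0.13) was not called as deposited and was called lower after scaling (-0.21 and -0.25).

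**Figure D3:**
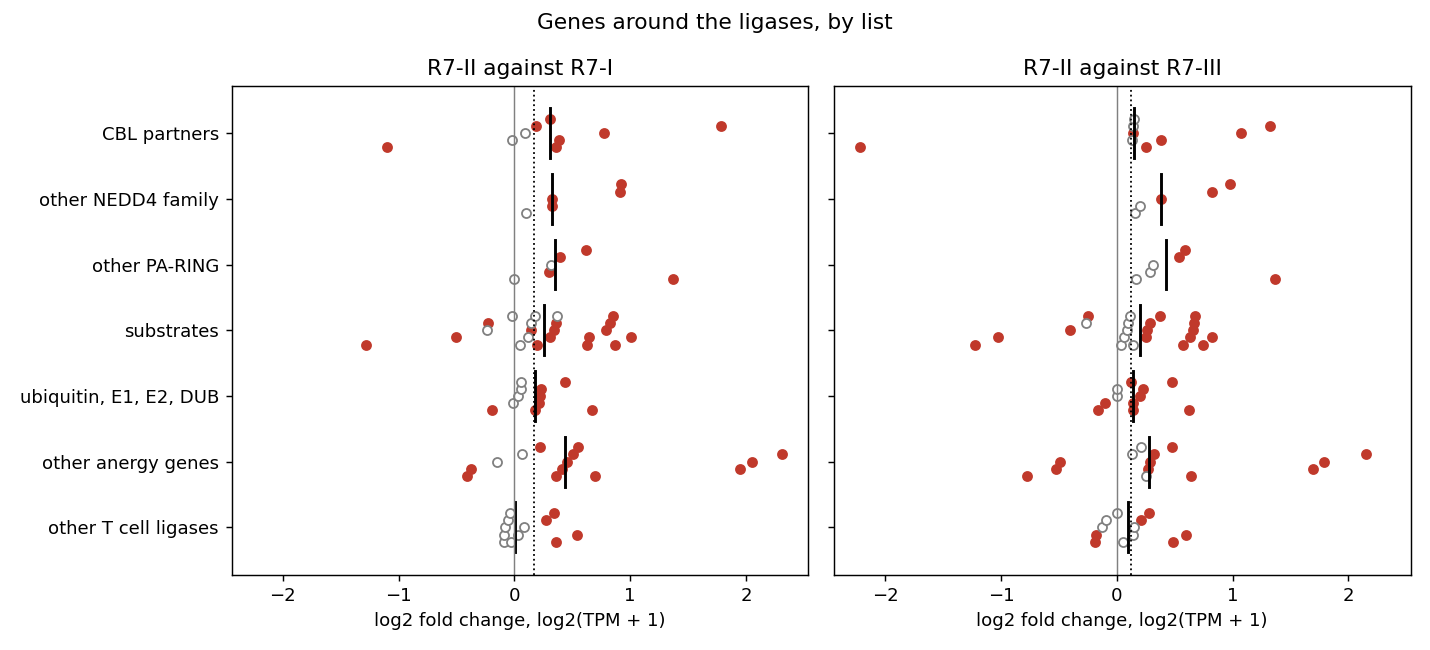
Log2 fold change on the log2(TPM + 1) scale of each tested gene on 7 lists, in R7-II against R7-I (left) and R7-II against R7-III (right), with called genes filled red, genes not called open, the list median as a black bar and the median of all genes dotted. The list of other T cell ligases has its median at 0.00 against R7-I, below the 0.17 of all genes, and the anergy list at 0.44 above it.

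Between R7-III and R7-I, where 6.96% of all genes were higher and 1.45% lower, limma called 3 of the 9 CBL partners higher in R7-III (Ubash3b, Sh3kbp1 and Sla2), 2 of the 22 substrates (Prkcq and Coro1a) and 3 of the 14 anergy genes (Dgka and Dgkz among them), and 0 on the other pathway lists, with 0 lower on any. Prkcq and Dgkz were named after their values were seen. After median-of-ratios scaling 2, 0 and 2 of these were higher, and 1 CBL partner, 1 substrate, 1 gene of the ubiquitin machinery and 2 of the other T cell ligases were lower. With that scaling 4.95% of all genes were higher and 3.44% lower.

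Genes whose levels followed those of Peli1 and Cbl most closely were found by the root mean square difference of log2(TPM + 1), centred on each gene's mean, over the 9 libraries among 11329 other genes. For Peli1 they were Akap8l (0.06; 31.7 ± 0.752, 62.8 ± 6.29 and 29.7 ± 0.438 TPM in R7-I, R7-II and R7-III), Kcnh2 (0.06, with no clone mean above 1.90 TPM) and Lef1 (0.07; 60.9 ± 1.79, 118 ± 12.5 and 56.2 ± 1.78 TPM). For Cbl they were Rnf111, itself a ubiquitin ligase gene (0.03; 21.2 ± 0.274, 29.0 ± 2.81 and 19.4 ± 1.13 TPM), Arid1a (0.04; 79.4 ± 2.44, 112 ± 8.16 and 74.1 ± 0.523 TPM) and Ash1l (0.04; 15.6 ± 0.0551, 21.4 ± 2.27 and 14.7 ± 0.376 TPM). Each had its highest mean in R7-II and its lowest in R7-III, the order of Peli1 and Cbl. The genes were picked for closeness to Peli1 or Cbl over the same 9 libraries. Their order therefore follows from the selection and is not a separate result.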

How the data were processed

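The authors mapped reads to mm10 and gave TPM from RSEM 1.2.11. Their test on counts (DESeq2 1.8.1) was not used here. The deposited TPM were taken as log2(TPM + 1), genes with a maximum above 1 TPM were kept, and limma 3.58.1 in R 4.3.3 fitted all 9 libraries at once with an intensity trend. P-values were adjusted over all tested genes by the Benjamini-Hochberg method, and an adjusted p under 0.01 was called. The fit was tested on simulated data. Exact permutation tests used scipy 1.17.1 in Python 3.11.15. From each list the 3 most abundant genes were named and, from the pathway lists, the 2 largest called changes in each comparison with R7-II, and the 3 closest genes were given for the 2 of the 8 with the largest F statistic, exceptions being marked in the text. Some genes that this rule names are not reported here. Alternatives changed the pseudocount, filter, scaling, trend, threshold, libraries fitted and replicate block. The genes and lists were chosen with earlier results of these data known. The exact depth of each library was not used here.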

Additional observations from a re-analysis of the deposited data

How the results depend on the processing

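Of 494 comparisons of a single gene, ratio or list with its value under an alternative, 424 kept direction and side of the threshold, and 140 of 171 counts stayed within 1.5 times. Peli1 and Cbl kept both calls in R7-II in 19 of 19 alternatives, with log2 fold changes of 0.73 to 1.02 and 0.25 to 0.50 against R7-I. Of the 7 tested genes, those higher in R7-II than R7-I numbered 5 and became 2 with median-of-ratios scaling, 3 with quantile normalization, 3 without trend, 3 with only the clones compared, and 3 with the replicate block, although replicate numbers do not pair the libraries. Over all tested genes those higher numbered 4604 and became 2949, 2558, 4448, 4096 and 4356 in the same settings. Of the 7, those lower in R7-II than R7-I (Nedd4) numbered 1 and became 0 with no filter, 2 with median-of-ratios scaling and 0 with only the clones compared. Over all tested genes those lower numbered 1754 and became 1669, 3230 and 1535. Of the 7, those lower in R7-II than R7-III numbered 1 and became 2 with either scaling. Over all tested genes these numbered 2039 and became 3150 with median-of-ratios scaling and 2843 with quantile normalization.

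Ndfip2 between R7-II and R7-I turned to -0.0188 with median-of-ratios scaling and -0.0439 with quantile normalization. In the mean log2 difference of R7-II from the 6 other libraries, median-of-ratios scaling, added after the data were seen, turned Cblb from 0.0260 to -0.124 and Ndfip2 from 0.0605 to -0.0878, neither past the exact test on either scale. At an adjusted p of 0.05, by construction of a looser threshold, 2142 genes separated R7-III from R7-I, 1673 higher and 469 lower. Of the 7, 2 were higher and 1 lower. With only the clones compared, 2 of the 7 were higher, and 926 of all tested genes.

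Leaving out 1 library gave 3 to 4 genes of the 7 higher and 0 to 1 lower in R7-II than R7-I, 3 to 4 higher than R7-III, 0 to 2 higher in R7-III than R7-I, and 436 to 1120 genes called between R7-III and R7-I. Over all tested genes the ranges for the counts of the 7 were 3934 to 4669, 1495 to 1710, 3348 to 4142 and 363 to 921. The sign turned for Ndfip1 between R7-III and R7-I (range -0.11 to 0.0109) and for Ndfip2 between R7-II and R7-III (range -0.0628 to 0.00163). The cause was not tested. TPM do not hold the exact depth of each library, so no counting limit is given for low genes such as Rnf128.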
